A study of Mus musculus with 4 samples.

Results

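Long intergenic noncoding RNAs (lincRNAs) were examined in smooth muscle cells sorted from mouse lungs with and without *Tet3*, which encodes an enzyme that oxidizes 5-methylcytosine in DNA. The set comprised each gene that the deposited table types as lincRNA on chromosomes 1 to 19, apart from the imprinted genes *H19*, *Meg3*, *Rian*, *Mirg* and *Peg13*. Of 791 lincRNAs in the table, 17 on X or Y and 3 of the named imprinted genes were left out, so that 771 of the 21462 genes listed were members. The rule names annotation and position and no values, but it was set with earlier results of these data known. The table itself lists only genes with at least 4 normalized counts in their highest library.

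All mice were C57BL/6. Mutants (genotype Mut in the labels, 2 libraries) were Tet3 fl/fl with α-SMA-ERT2Cre2, a Cre recombinase active after tamoxifen in cells that use the α-SMA promoter, and a ROSA26-tdTomato reporter. Controls (WT, 2 libraries) lacked the floxed allele but carried Cre, the reporter or both, as the study states for its controls in general. Those sorted as tdTomato+ must have carried at least the reporter. By the study's methods tamoxifen was given daily from 8 weeks of age. Sorted cells can therefore include myofibroblasts as well as vascular and airway smooth muscle. CD45+ and Ter-119+ cells were depleted on beads before tdTomato+ cells were sorted. The study gives the libraries of a group as independent animals. The labels give neither sex nor age of the animal behind each library, nor a batch.

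lincRNAs are RNA polymerase II long transcripts that lie between protein-coding genes and carry no long conserved open reading frame. Many stay in the nucleus, where some scaffold nuclear bodies (*Neat1* in paraspeckles, *Malat1* at nuclear speckles), others are precursors from which microRNAs or small nucleolar RNAs are cut, and others act on the gene next door through the act of being transcribed. In smooth muscle the best studied is *Carmn*, known for its part in the contractile state.

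Sequences of 3 kinds are shown because the results below refer to them. The first are mature microRNAs held by 2 members, a strand of which becomes the guide of an Argonaute complex. Sequences are from RefSeq on GRCm38.p6, printed 5′ to 3′ with the seed (bases 2 to 8) in capitals. *6720427I07Rik*, on the minus strand of chromosome 13, holds 3 members of the let-7 family with 1 shared seed. *Mir17hg*, on the plus strand of chromosome 14, holds the miR-17-92 cluster, whose guides carry 4 seeds: 1 shared by miR-17 and miR-20a, 1 by miR-19a and miR-19b, and 1 each for miR-18a and miR-92a.
let-7a-5p, chr13:48538239-48538260: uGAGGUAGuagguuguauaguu
let-7f-5p, chr13:48537889-48537910: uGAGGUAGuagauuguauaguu
let-7d-5p, chr13:48536078-48536099: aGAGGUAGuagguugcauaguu
miR-17-5p, chr14:115043684-115043706: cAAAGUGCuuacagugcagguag
miR-20a-5p, chr14:115044183-115044205: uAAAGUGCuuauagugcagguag
miR-19a-3p, chr14:115044048-115044070: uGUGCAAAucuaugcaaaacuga
miR-19b-3p, chr14:115044358-115044380: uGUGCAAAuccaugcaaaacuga
miR-18a-5p, chr14:115043867-115043889: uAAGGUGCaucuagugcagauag
miR-92a-3p, chr14:115044476-115044496: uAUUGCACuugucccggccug

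The second is a site in *Oip5os1*, the mouse counterpart of the RNA called Cyrano, which is known to direct the decay of miR-7. Capitals mark the match to the seed of miR-7a-5p in the site, GTCTTCC, and, in the first site printed, the longer stretch complementary to the rest of that microRNA. The longest transcript of *Oip5os1* in GENCODE M21 held 2 seed matches, both in exon 3 of 3 on the plus strand. The site at chr2:119602135-119602161 was followed by a further complementary stretch of 13 bases towards its 5′ end, against 3 bases at the other. Seed matches alone were common: 136 of 769 members with a transcript (17.7%) held at least 1 in their longest transcript, read on the sense strand.
miR-7a-5p: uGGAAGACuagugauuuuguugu
Oip5os1, chr2:119602135-119602161: gaACAACAAAATCACcaatGTCTTCCa
Oip5os1, chr2:119599945-119599971: ttcaggttttttttttaatGTCTTCCa

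The third are promoters, from 250 bases before to 50 bases after a start site in RefSeq (GRCm38.p6), with CpG dinucleotides, the substrate of DNA methylation and of TET enzymes, in capitals. *Malat1* is the most abundant member, *Gm20554* stood highest in 1 control library (see its values further on), and *Gm36161* had both mutants above both controls. Their 300 bases held 10, 24 and 0 CpG. Promoters of *Snhg18* and *Oip5os1*, not shown, held 31 and 15, and in both genes both mutants also lay above both controls.
Malat1, chr19:5802623-5802922, minus strand: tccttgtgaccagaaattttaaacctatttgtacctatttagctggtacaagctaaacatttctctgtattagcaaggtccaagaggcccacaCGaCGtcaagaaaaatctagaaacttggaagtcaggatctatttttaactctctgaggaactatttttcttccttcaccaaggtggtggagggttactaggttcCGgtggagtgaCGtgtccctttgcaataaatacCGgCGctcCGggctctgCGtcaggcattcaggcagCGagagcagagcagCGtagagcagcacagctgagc
Gm20554, chr13:72628515-72628814, minus strand: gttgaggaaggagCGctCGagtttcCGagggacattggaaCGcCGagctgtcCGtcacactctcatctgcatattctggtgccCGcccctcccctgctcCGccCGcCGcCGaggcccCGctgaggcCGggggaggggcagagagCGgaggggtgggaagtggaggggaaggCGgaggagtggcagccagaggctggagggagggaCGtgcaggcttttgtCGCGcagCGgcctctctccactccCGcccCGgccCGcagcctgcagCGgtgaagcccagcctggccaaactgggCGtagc
Gm36161, chr13:120010092-120010391, plus strand: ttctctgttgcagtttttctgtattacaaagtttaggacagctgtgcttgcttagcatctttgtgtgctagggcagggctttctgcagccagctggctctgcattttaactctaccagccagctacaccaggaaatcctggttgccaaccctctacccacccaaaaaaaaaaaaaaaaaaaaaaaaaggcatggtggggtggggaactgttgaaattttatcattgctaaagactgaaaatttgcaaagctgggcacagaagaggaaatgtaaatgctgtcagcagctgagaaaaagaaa

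RefSeq held promoters for 382 members. The median number of CpG in 300 bases was 5 over lincRNA promoters, 18 over promoters of protein-coding genes in the table and 7 over all RefSeq promoters. The GC box GGGCGG, searched on both strands, was in 23.8% of lincRNA promoters, 58.2% of protein-coding promoters and 35.7% of all. TATAAA, also searched on both strands, was in 15.3%, 8.16% and 13.6%, respectively. lincRNA promoters thus held fewer CpG than coding ones. Across the 151 tested lincRNAs with a promoter, the number of CpG and the log2 fold change between genotypes had a Spearman correlation of -0.09. The median log2 fold change was -0.11 in the 71 above the median of 8 CpG and 0.03 in the 80 at or under it.

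Values are normalized counts, which the authors scaled between libraries and rounded to whole numbers. They summed to 7003231 and 7164573 in the controls and 6893578 and 6805272 in the mutants. *Tet3* itself (chromosome 6) had 1847 and 1926 in the controls and 1534 and 1444 in the mutants, a log2 fold change of -0.34 ± 0.10 (SE) with a limma adjusted p of 0.681. Reads of the gene were therefore lower in both mutant libraries but far from absent. The study summed reads over all exons of a gene, so these values do not show how much intact *Tet3* RNA remained. In sorted lung smooth muscle cells, the study reports a profound drop in hydroxymethylated cytosine after loss of *Tet3*. Control replicate 2 stood apart: *Xist* was 2 there and 5214 to 6781 in the other 3 libraries, and the Y-linked *Ddx3y* was 774 there and 0 in the others. By these genes control replicate 2 came from a male and the other 3 libraries from females. The controls thus mixed sexes and the mutants did not. Summed smooth muscle markers reached 10762 and 11305 in the control libraries against 12895 and 11870 in the mutants, and markers of other cell types were also present (macrophages 5831 to 9188, alveolar type 2 cells 10340 to 22285, endothelium 12672 to 13888 over the 4 libraries). In sorted bulk cells, fewer cells of a type and less RNA per cell cannot be told apart.

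lincRNAs were scarce in these cells. Together they took 0.408% and 0.428% of the control totals and 0.437% and 0.369% of the mutant totals, so mutant replicate 2 had the lowest share and the groups overlapped. *Malat1* and *Neat1* alone made up 28.9% to 33.5% of the members' total. The median member had a mean of 6.75 normalized counts, against 237.6 for protein-coding genes. The minimum for testing, a 4-library mean of 10 or more, was reached by 295 lincRNAs (38.3%) and by 91% of protein-coding genes. Only 73 reached 50. The exons of a lincRNA spanned a median of 1770 bases against 4335 for coding genes, and per kilobase of exon the median level of tested genes was 13.9 for lincRNAs and 65.9 for coding genes. The longest-spliced transcript had a median of 3 exons against 9, and 111 members (14.4%) had a single exon against 2.5% of coding genes. In GENCODE M21, 763 members are typed as lincRNA, while 4, *Gm10134* among them, are typed as protein-coding.

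The most abundant members differed little between genotypes. *Malat1* (chr19:5795690-5802672) had 5552 and 6132 normalized counts in the controls and 6237 and 5063 in the mutants. *Neat1* (chr19:5824708-5845478) had 2766 and 3965 in the controls and 3848 and 2194 in the mutants. In both, mutant replicate 1 lay near control replicate 2 and mutant replicate 2 was the lowest of the 4. Their log2 fold changes were -0.05 ± 0.14 (SE) and -0.19 ± 0.32, with limma adjusted p of 0.930 and 0.882. Per kilobase of exon, *Malat1* was the most abundant lincRNA at 823, followed by *Gm10134* at 276, *AU020206* at 207 and *Oip5os1* at 188, while *Carmn* stood at 177, *Neat1* at 154 and *Lncpint* at 112. *Gm37494*, *AU020206* and *Dubr*, a chromatin-associated lincRNA, followed among the 10 highest means. Their ranges over the 4 libraries were 967 to 1115, 545 to 738 and 398 to 534, and the groups overlapped in all 3.

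**Figure D1:**
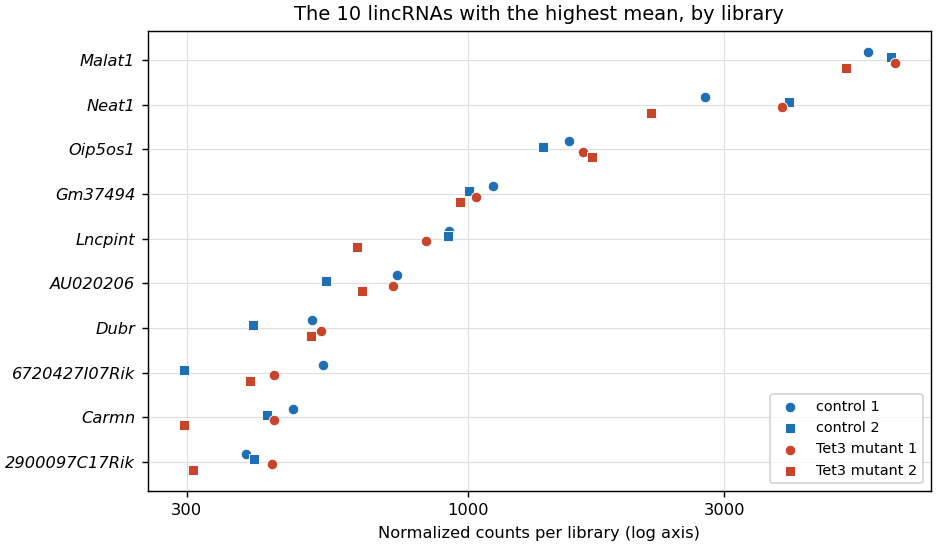
Normalized counts (log axis) of the 10 lincRNAs with the highest mean, 1 point per library, controls in blue and Tet3 mutants in red. *Malat1* spans 5063 to 6237, and the groups separate for *Oip5os1* (mutants higher) and *Lncpint* (mutants lower).

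Among widely expressed nuclear or regulatory lincRNAs, 7 of 9 were tested, with 1 above and 6 below 0, none with a limma unadjusted p under 0.05 and a median log2 fold change of -0.11, against -0.007 over all genes tested. *Oip5os1*, which carries the miR-7 site shown above, had 1544 and 1379 in the controls and 1636 and 1703 in the mutants. Both mutants lay above both controls, with a log2 fold change of 0.19 ± 0.11 (SE) and a limma adjusted p of 0.689. *Lncpint* (chr6:31082565-31220488), a p53-responsive RNA, went the other way, with 925 and 921 in the controls and 837 and 623 in the mutants. The difference of -0.35 ± 0.17 came with a limma adjusted p of 0.681, and mutant replicate 1 lay closer to the controls than to the other mutant. *Trp53cor1*, the p53-induced lincRNA-p21, had 17 and 21 in the controls and 17 and 8 in the mutants, so the groups met at 17. *Pvt1*, neighbour of *Myc*, ranged from 28 to 46 with control replicate 1 the highest. *2900097C17Rik*, the mouse Norad, which binds Pumilio proteins, had 387 and 400 in the controls and 432 and 308 in the mutants. Its longest transcript held 11 matches to the Pumilio motif TGTANATA on the sense strand, the highest number of any member, although *Gm7292* held more per kilobase (3.56 against 2.24). At least 1 match was found in 16.9% of members. *Lockd* and *Miat* were under the minimum.

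Hosts of microRNAs had log2 fold changes on both sides of 0. RefSeq places 41 microRNA hairpins with 77 mature forms within 18 members, 11 of them tested, with 4 above and 7 below 0. *6720427I07Rik*, the let-7 host, had 537 and 297 normalized counts in the controls and 436 and 394 in the mutants. *Mir17hg* had 57 and 19 in the controls and 34 and 27 in the mutants. In both hosts, the mutants lay between the controls, and the log2 fold changes were 0.05 ± 0.30 (SE) and -0.12 ± 0.59. The same order was seen for *A230057D06Rik*, which holds microRNAs of the miR-344 family, at 188 and 76 against 142 and 126, and for *E130102H24Rik*, the host of miR-101a, at 55 and 27 against 36 and 30. *Mir142hg*, precursor of a microRNA of blood cells, had 10 and 35 in the controls and 36 and 6 in the mutants, with the high and the low library in opposite order in the groups. *Gm27028*, the host of miR-30c-2, had 18 and 11 in the controls and 10 and 5 in the mutants, so that both mutants were lower (-0.89 on the log2 scale). It lay close to the minimum mean of 10 and reached it only through the controls. *Gm37233*, which holds miR-5103, had 75 and 140 against 76 and 79. *4833445I07Rik*, which spans miR-191 and miR-425, held between 15 and 20. Steady levels of a host do not give those of its microRNAs, which were not measured in these libraries.

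Small nucleolar RNAs guide the modification of ribosomal RNA and are cut from introns of their hosts. The list, chosen by name, has 7 hosts, of which 6 were tested. Of these, 1 was above and 5 below 0, with a median log2 fold change of -0.10. *Snhg18* (chr15:32240565-32244662) had 167 and 161 in the controls and 183 and 205 in the mutants, so the groups did not overlap (log2 fold change 0.24 ± 0.17 (SE), limma adjusted p 0.725). *Snhg15* had 37 and 32 in the controls and 27 in each mutant, and *Epb41l4aos* 44 and 47 against 41 and 37. *Snhg6* had 37 and 38 against 34 and 35. These 3 were lower in both mutants, by a few counts each. *Snhg20* and *Snhg12* overlapped. By the annotation, 10 members hold a small nucleolar RNA gene, and *Snhg10* and *Snhg20* of the list are not among them. Of the 10, 7 were tested, with 2 above 0 and a median log2 fold change of -0.12. *B830012L14Rik* holds 9 such genes together with the miR-379 cluster. It lies on chromosome 12 in the same imprinted stretch as *Meg3* and *Mirg* but was not named in the rule, and it was picked out after its values were seen. It had 12 and 16 in the controls and 48 and 12 in the mutants, so mutant replicate 1 alone was high.

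Of the lincRNAs known from cardiovascular mesenchyme, *Carmn* had 473 and 423 normalized counts in the controls and 437 and 296 in the mutants. *Bvht*, which lies beside it on chromosome 18 and is known from cardiac differentiation, had 48 and 22 in the controls and 41 and 44 in the mutants. Mutant replicate 2 was lowest for *Carmn* and control replicate 2 for *Bvht*, and the groups overlapped in both. The log2 fold changes were -0.31 ± 0.22 (SE) and 0.37 ± 0.46, with limma adjusted p of 0.720 and 0.832. Summed smooth muscle protein markers, given above, exceeded the controls in each mutant library, and their part in these values was not tested.

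The immune lincRNAs had 2 members above and 2 below 0 of 4 tested, with a median log2 fold change of 0.10. *Morrbid* (chr2:128178319-128502765), which in short-lived myeloid cells represses the neighbouring pro-apoptotic gene *Bcl2l11*, had 154 and 121 normalized counts in the controls and 213 and 178 in the mutants. Both mutants were higher, by 0.51 ± 0.22 (SE) on the log2 scale, with a limma adjusted p of 0.681. *Bcl2l11*, 15.8 kb away and transcribed towards it, had 471 and 672 in the controls and 408 and 368 in the mutants, lower in both by a log2 fold change of -0.54 with a limma adjusted p of 0.681. The pair therefore lay in opposite directions, with control replicate 2 the highest library for *Bcl2l11* and the lowest for *Morrbid*. Among lincRNAs over 10 to 100 kb from their nearest coding gene, 57 of 108 pairs (52.8%) had the same sign. Whether the 2 genes are linked here was not tested. *AW112010*, an interferon-inducible RNA, had 116 and 61 in the controls and 134 and 131 in the mutants, and control replicate 2 was the low library. *Ptgs2os2* (chr1:150159043-150164948), an RNA near *Ptgs2*, had 37 and 109 in the controls and 23 and 34 in the mutants. Most of its log2 fold change of -1.16 ± 0.59 came from control replicate 2, in which *Ptgs2* was also high, at 472 against 221 in the other control and 198 and 228 in the mutants. Summed neutrophil markers were 687 and 520 in the controls and 1346 and 790 in the mutants (all 5 tested genes above 0). Macrophage markers summed to 7473 and 5831 against 7812 and 9188 (10 of 10 above 0), and T cell markers to 858 and 239 against 927 and 944 (10 of 10). *AW112010* had the same lowest library as the T cell markers, control replicate 2. That library was also lowest for summed markers of B cells, macrophages, neutrophils, endothelium, mesothelium and fibroblasts. The part of these cells in the lincRNA values was not tested.

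Across all lincRNAs, none passed the test for a difference between genotypes. With limma, 0 of 295 had an adjusted p under 0.05, and the smallest adjusted p was 0.681, while 0% of the 16659 genes tested passed. At an unadjusted p under 0.05 there were 9 lincRNAs (3.05%), below the 6.68% of all genes. Of these, 3 were higher in the mutants (3.83% of all genes were) and 6 lower (2.85%). In each direction at least 1 reached the minimum mean only through the group where it was high, as named below. Without the trend in limma the lincRNA share lay above that of all genes, with 26 lincRNAs (8.81%) against 6.83%. Leaving out a library gave 7 without control replicate 2, but 48 (16.3%, against 20.2% of all genes) without control replicate 1 and 3 (1.02%, against 1.64%) without mutant replicate 1. The groups did not overlap in 98 lincRNAs (33.2%) against 39% of all genes. Of these, 39 were higher in the mutants (13.2% against 19.6% of all genes) and 59 lower (20% against 19.5%), so the shortfall lay among the higher ones. A log2 fold change above 0 was found in 125 (42.4%) against 48.9% of all genes, and the median was -0.08 against -0.007. Fold changes past 1.5 were more frequent than in all genes, at 79 lincRNAs (26.8%) against 16.9%. Of the 79, 29 were higher (8.25% of all genes) and 50 lower (8.69%).

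**Figure D2:**
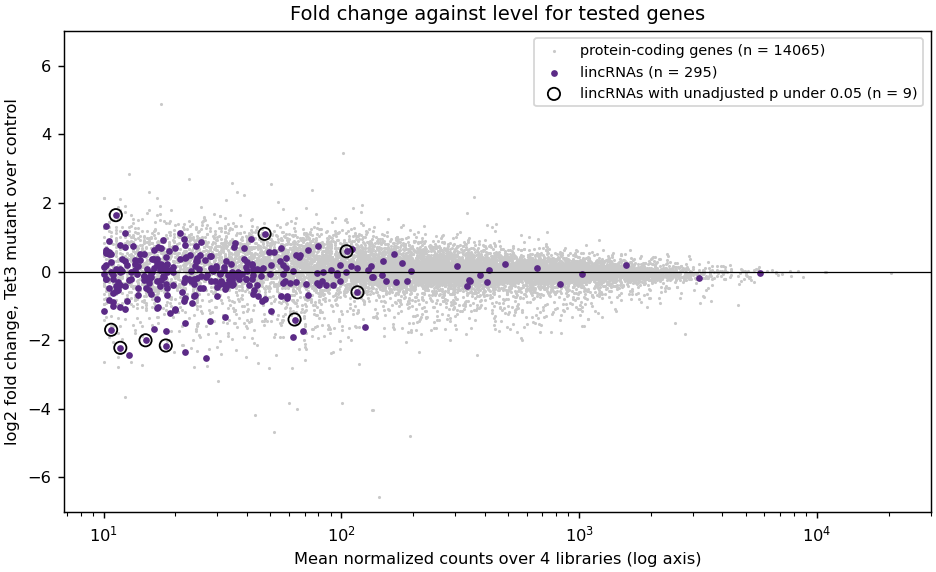
log2 fold change (Tet3 mutant over control, on normalized counts plus 1) against mean normalized counts (log axis) for 295 lincRNAs in purple and 14065 protein-coding genes in grey, with circles round the 9 lincRNAs at an unadjusted p under 0.05. lincRNAs crowd at low levels, and the 6 circled points below 0 include 4 with a mean under 20.

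As lincRNAs have lower levels than coding genes, both were also set side by side within ranges of the mean. From 10 to under 20 normalized counts, the median log2 fold change was -0.03 for 112 lincRNAs and 0.13 for 682 coding genes, and 5 lincRNAs (4.46%) and 28 coding genes (4.11%) had a limma unadjusted p under 0.05. From 20 to under 50, the median log2 fold change was -0.12 for 110 lincRNAs and 0.22 for 1225 coding genes. In that range 1 lincRNA (0.909%) and 98 coding genes (8%) had a limma unadjusted p under 0.05. From 50 to under 200, the medians were -0.06 for 59 lincRNAs and 0.06 for 3718 coding genes, and 3 lincRNAs (5.08%) and 296 coding genes (7.96%) had an unadjusted p under 0.05. Fold changes past 1.5 were then less frequent among lincRNAs than coding genes in the lower ranges, at 31.2% against 44% from 10 to under 20 and 26.4% against 37.6% from 20 to under 50, and more frequent from 50 to under 200, at 25.4% against 20.5%. The median standard error was 0.55 against 0.52, 0.41 for both types and 0.32 against 0.26 in the 3 ranges. At a mean of 200 or more, 0 of 14 lincRNAs and 6.62% of 8440 coding genes were past 1.5-fold. There, 0 lincRNAs and 573 coding genes (6.79%) had a limma unadjusted p under 0.05, and the medians were -0.09 and -0.01. Antisense and bidirectional promoter RNAs, noncoding types with levels and lengths near those of lincRNAs, had a lower median, at -0.20 over 404 tested, and 11 with an unadjusted p under 0.05 (2.72%). Within the lincRNAs, the 60 tested with a single exon had a median of -0.27 and the 234 with several exons -0.06. None of these medians was tested.

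The 9 lincRNAs at a limma unadjusted p under 0.05, named here after their values were seen, all had an adjusted p of 0.681. *Gm34455* (chr17:26467560-26503200) had 119 and 67 normalized counts in the controls and 41 and 27 in the mutants. The groups did not overlap, with a log2 fold change of -1.40 ± 0.41 (SE). On the same scale, control replicate 2 minus control replicate 1 was -0.82. The coding gene nearest to *Gm34455* is *Dusp1*, a phosphatase gene of the immediate early response, 2.39 kb upstream on the same strand. *Dusp1* had 1253 and 1464 in the controls and 1185 and 1029 in the mutants. *Gm44751* (chr7:88311478-88315864), a single-exon gene 0.59 kb downstream of the cathepsin C gene *Ctsc*, had 134 and 148 in the controls and 85 and 100 in the mutants (-0.61 ± 0.21). *Ctsc* had 1773 and 2650 against 1792 and 1906 and overlapped. *Gm32200*, *Gm32633*, *Gm26671* and *Gm46620* were also lower, but at means of 10.8 to 18.2. Their mutant means were 3.5 to 5.5, so all 4 reached the minimum mean of 10 only through the controls. Both mutants held at most 5 counts in *Gm32200*, *Gm26671* and *Gm46620* and at most 8 in *Gm32633*, and control replicate 2 was the highest library in all 4. *Gm36161* (chr13:120010390-120018931), whose promoter without CpG is shown above, had 38 and 23 in the controls and 63 and 66 in the mutants (1.10 ± 0.36). *Gm10134* (chr2:28506095-28507773) had 87 and 80 in the controls and 116 and 137 in the mutants (0.59 ± 0.22). *4833407H14Rik* had 7 and 3 against 23 and 12, close to the minimum for testing, which it reached only through the mutants.

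Among the 73 lincRNAs with a mean of at least 50, the groups did not overlap in 12 that were higher in the mutants (16.4%, against 19.6% of all genes) and 14 that were lower (19.2%, against 19.5%), so the shares were near those of all genes. The 10 of smallest p per direction were followed. The higher ones, besides *Oip5os1*, *Morrbid*, *AW112010* and *Gm10134*, were *Gm28875*, *2310001H17Rik*, *Gm38410*, *9630028I04Rik*, *AI197445* and *Gm49767*, with log2 fold changes from 0.41 to 0.74. *Gm28875* had 53 and 59 in the controls and 76 and 101 in the mutants. *Gm49767*, 4.3 kb from the apolipoprotein gene *Apod*, had 51 and 53 in the controls and 97 and 56 in the mutants, so that mutant replicate 1 carried most of the difference. *Apod* had 159 and 97 against 176 and 232. The lower ones, besides *Gm34455*, *Gm44751*, *Lncpint* and *Ptgs2os2*, were *Gm45332*, *Gm20342*, *D730003I15Rik*, *3222401L13Rik*, *Gm20300* and *2610037D02Rik*, from -1.61 to -0.28. *Gm20342*, divergent from the chromatin remodelling gene *Ino80d*, had 378 and 391 against 337 and 242, with the mutants further apart than the controls. *Gm20300* had 214 and 200 against 172 and 169, and *Hint3*, 1.51 kb upstream of it, had 174 and 240 against 130 and 154. *D730003I15Rik*, divergent from the stress-response gene *Atf3* at 6.42 kb, had 57 and 81 against 52 and 33, and *Atf3* had 276 and 331 against 256 and 169. The limma adjusted p of these 20 ran from 0.681 to 0.725.

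**Figure D3:**
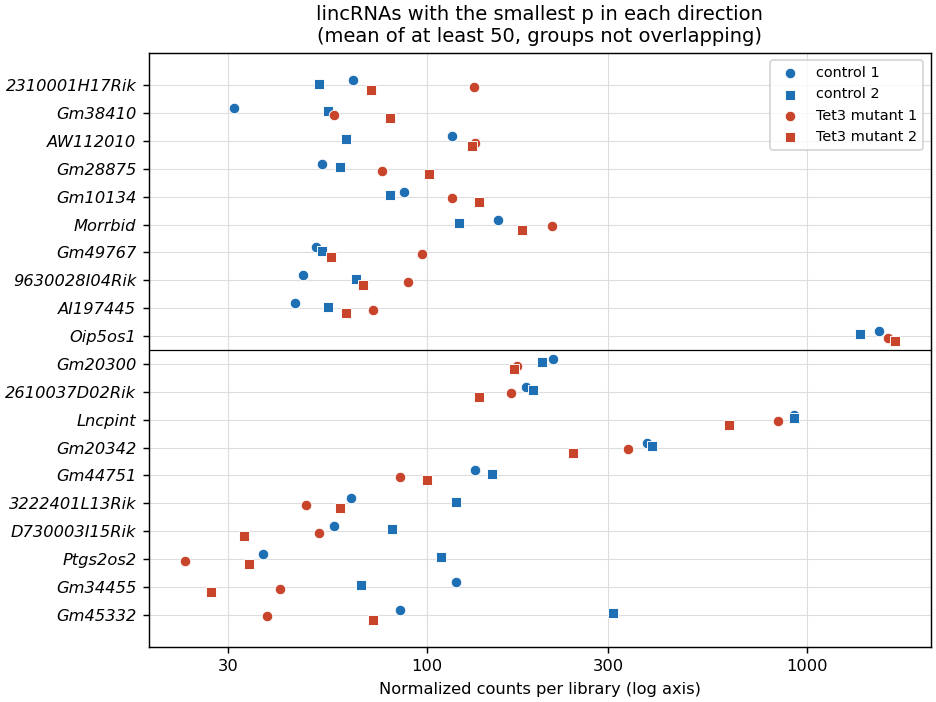
Normalized counts (log axis) by library for the 20 lincRNAs with the smallest p in each direction, ordered by log2 fold change, with those higher in the mutants above the line. The gap between groups is narrow beside the distance between the 2 controls for members in both directions. Among them are *Gm45332*, *Ptgs2os2* and *3222401L13Rik* below the line and *Gm38410*, *AW112010* and *9630028I04Rik* above it.

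Over all levels, replicate spread was wider for lincRNAs than for protein-coding genes, and for both it was wider between controls than between mutants. The median absolute log2 difference between the 2 controls was 0.55 for lincRNAs and 0.25 for protein-coding genes, and between the 2 mutants 0.32 and 0.16. The controls differed more than 2-fold in 76 lincRNAs (25.8%, against 11.1% of all genes) and the mutants in 35 (11.9%, against 4.89%). At matched level the types lay closer. From 10 to under 20 normalized counts, the controls differed more than 2-fold in 33.9% of lincRNAs and 30.9% of coding genes, and the mutants in 20.5% and 19.1%. The median difference between mutants was smaller for lincRNAs there, at 0.45 against 0.51, and from 20 to under 50, at 0.26 against 0.38. Within the range of 50 to under 200, the controls differed by a median of 0.48 for lincRNAs and 0.32 for coding genes, and the mutants by 0.31 and 0.25. The largest control differences at a mean of at least 50 were those of *Gm20554*, *Gm19990*, *Gm9801*, *Gm45332* and *Gm48662*, and the largest mutant differences those of *Gm19990*, *Gm36723*, *Gm15675*, *Gm45332* and *2310001H17Rik*. *Gm9801* had 88 and 22 in the controls and 59 and 51 in the mutants, and *Gm48662* 95 and 28 against 64 and 77. Control replicate 2 was lowest in both. *Gm36723* had 26 and 69 against 78 and 30, so each group held 1 high and 1 low library.

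In 11 lincRNAs (3.73% of those tested, against 0.558% of all genes), control replicate 2 exceeded each of the other 3 libraries more than 4-fold. Within ranges of the mean, the share was 2.68% of lincRNAs against 1.47% of coding genes from 10 to under 20. It was 5.45% against 1.47% from 20 to under 50, and 3.39% against 0.457% from 50 to under 200. Among antisense and bidirectional promoter RNAs, 8 (1.98%) did so. No tested lincRNA stood 4-fold below the others in control replicate 2, where 0.474% of all genes did. Of the 11, *C87198*, *Gm39094* and *Gm6213* were under 10 in each other library. *Gm21817*, *Gm31227* and *Gm12576* were under 10 on average over the other libraries. All of these reached the minimum mean of 10 only through control replicate 2, the library in which they then stood high. The shares above, also those within ranges of the mean, carry this selection. Numbers of lincRNAs standing above and below the other libraries are therefore not alike. In the other libraries 0 lincRNAs stood 4-fold above the rest, where 0.078% (control replicate 1), 0.042% (mutant replicate 1) and 0.018% (mutant replicate 2) of all genes did, or 4-fold below it, where 0.048%, 0.21% and 0.048% did, in the same order. The coding genes next to several of the 11, named here after their values were seen, encode transcription factors of the lung epithelium or its development. *Gm20554* (chr13:72626213-72628564), whose CpG-rich promoter is shown above, starts 0.256 kb from *Irx2* and is transcribed away from it. It had 19 and 198 normalized counts in the controls and 21 and 12 in the mutants, and *Irx2* had 476 and 1250 in the controls and 172 and 296 in the mutants. *Gm21817* (8 and 52 against 10 and 3) lies 18.4 kb from *Irx5*, another Iroquois factor, which had 207 and 668 against 106 and 216. In each pair, the lincRNA and its neighbour were both highest in control replicate 2.

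The same library was highest for *9030622O22Rik*, 2.67 kb from *Foxa2*, a forkhead factor of endoderm, at 16 and 72 against 11 and 13, with *Foxa2* at 219 and 587 against 145 and 246. *C87198*, 54.2 kb from *Nkx2-1*, the master factor of lung epithelium, had 6 and 40 against 4 and 1, and *Nkx2-1* had 685 and 1501 against 378 and 540. *Gm19990*, near *Mbip* and in the same chromosome 12 region, had 41 and 177 against 15 and 42. For *Gm15889*, *Gm26797*, *Gm39094* and *Gm6213*, the nearest coding gene was 0.03 to 0.18 higher there on the log2 scale than in the other 3 libraries. For *Gm31227* the nearest gene, *Adamdec1*, was not higher, at 15 and 15 against 35 and 36. *Gm12576*, the last of the 11, had 10 and 48 against 10 and 8. Alveolar type 2 markers summed to 15080 and 22285 in the controls and 10340 and 13606 in the mutants, with 8 of 8 below 0. Markers of ciliated cells, another epithelial type, did not have this order, at 2035 and 2178 in the controls and 4141 and 2809 in the mutants, with 8 of 8 above 0. *Gm45332* (85 and 309 against 38 and 72), which was among the lower lincRNAs above, has *Irx5* as its nearest coding gene, at 199 kb. The part of epithelial RNA in these values was not tested. Effects of sex or of any other property of the animal in control replicate 2 cannot be told apart from that library.

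**Figure D4:**
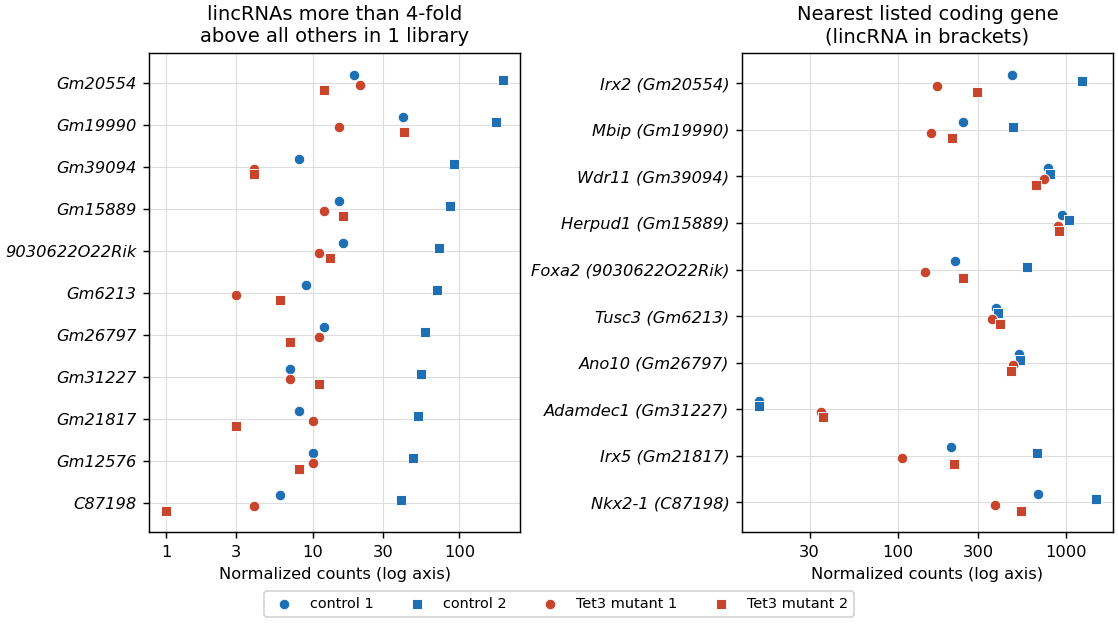
Normalized counts (log axes) by library for the 11 lincRNAs at which control replicate 2 exceeded each other library more than 4-fold (left) and for the nearest listed coding gene of 10 of them (right). *Irx2*, *Foxa2*, *Irx5*, *Nkx2-1* and *Mbip* are also highest in control replicate 2, while the other five neighbours are not set apart there.

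Position relative to the nearest coding gene was then described for all members. The gene was within 10 kb for 382 of 771 (49.5%), and the commonest arrangement was divergent, in 248 (32.2%) at a median distance of 5.19 kb, 121 of them within 5 kb. The neighbour lay upstream on the same strand in 198, downstream on the same strand in 144, and the pair was convergent in 105 and overlapping in 76. Since the strand setting of the counting is not stated, reads in the overlapping pairs cannot be assigned with certainty. Median log2 fold changes were -0.08 for the divergent, 0.03 for the convergent and -0.12 for the overlapping.

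Across 289 pairs in which both were tested, the log2 fold changes of a lincRNA and its nearest coding gene had a Pearson correlation of 0.37 and a Spearman correlation of 0.33. Up to 10 kb apart these were 0.48 and 0.42 over 156 pairs, of which 91 (58.3%) had the same sign. Coding genes and their nearest other coding gene within 10 kb had correlations of 0.10 and 0.12 over 8433 pairs. All points share the 4 libraries. The relation followed 1 library: without control replicate 2 the Pearson correlation was 0.14 over all distances and 0.21 within 10 kb, whereas leaving out any other library gave 0.34 to 0.43 and 0.45 to 0.54. The deviation of control replicate 2 from the other libraries correlated at 0.43 between lincRNAs and neighbours over all distances.

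**Figure D5:**
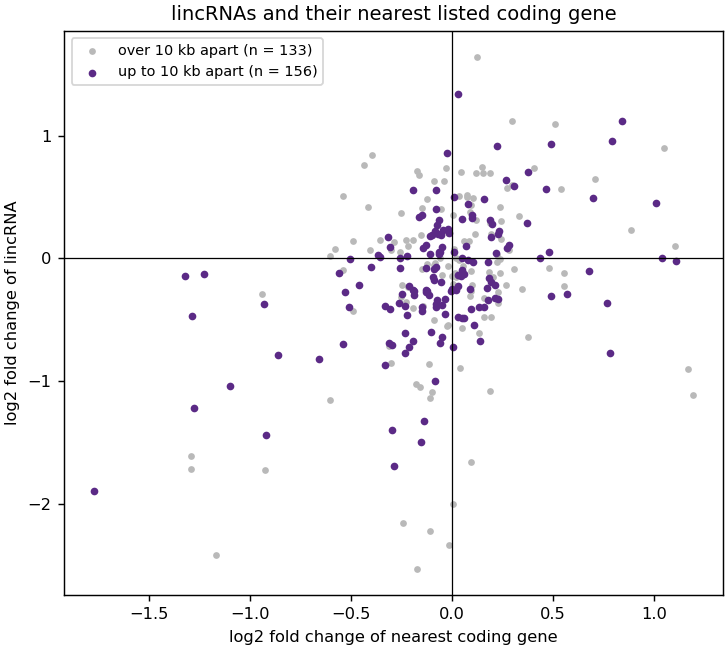
log2 fold change (Tet3 mutant over control) of 289 lincRNAs against that of their nearest listed coding gene, with pairs up to 10 kb apart in purple and the others in grey. Purple points stretch towards the lower left, where *Gm20554* with *Irx2* lies furthest to the left.

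By chromosome, medians of tested lincRNAs ranged from -0.40 on chromosome 1 to 0.19 on chromosome 12. On chromosome 1, 4 of 20 were above 0, while the median of all 1094 genes tested there was 0.002. *Gm20342*, *D730003I15Rik* and *Ptgs2os2*, described above, are on that chromosome, as is *Gm32200*. On chromosome 13, 13 of 19 were above 0. The medians were not tested, and each rests on at most 27 lincRNAs.

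Below the minimum for testing were 476 members, 163 of them with a mean under 3, and these have no test. In 3, *AY512931*, *Gm20443* and *Gm41584*, both controls held at least 3 counts (3 and 8, 3 and 5, and 3 and 7) and both mutants were listed at 0. In *Platr1* both controls were listed at 0 and the mutants held 5 and 3. A count of 0 allows a true value of up to 3 by counting error alone, so such differences were not resolved at this depth.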

How the data were processed

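RNA of 2 control and 2 Tet3 mutant libraries, grouped by the labelled genotype, was depleted of ribosomal RNA and made into stranded libraries by the authors. Per the labels and the study's methods, reads were trimmed (Trimmomatic 0.36), aligned to mm10 (GRCm38) with STAR 2.6.0c and counted with featureCounts (Subread 1.6.0), without reads of several genes or places. The deposited values are a score: counts normalized with DESeq2 by the authors and rounded to whole numbers. Raw counts were not used here, so precision is known only from replicates.

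Values were compared as log2(value + 1), which understates fold changes of low genes, with limma 3.58.1 (eBayes with trend, R 4.3.3) over all 16659 genes with a mean of at least 10 and Benjamini-Hochberg adjustment over them, at 0.05. The fit was tested on simulated data. Exons and transcripts came from GENCODE M21 and promoters and microRNAs from RefSeq (GRCm38.p6).

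Members and lists were chosen with earlier results of these data known. Named were list members with a mean of at least 10, the 10 highest means, the 10 smallest p per direction (mean of at least 50, no overlap) with their neighbours, and the 5 largest control and mutant differences (mean of at least 50). As alternatives, the pseudocount was set to 0.5 or 8, the minimum mean to 1 or 50, and the others were TMM factors, equal totals, no trend, the replicate block and leaving out each library. The coding neighbour of 1 lincRNA is not reported here. With 2 against 2, no exact permutation test can reach 0.05.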

Additional observations from a re-analysis of the deposited data

How the results depend on the processing

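No lincRNA passed the adjusted threshold in limma under any setting run, and none of the 45 named lincRNAs nor *Tet3* did. The number of lincRNAs at an unadjusted p under 0.05 (9) was 30 with a mean of at least 1, 3 with a mean of at least 50 and 26 without the trend, and 3 to 48 when 1 library was left out, with 48 without control replicate 1 and 3 without Tet3 mutant replicate 1. A fit with 1 library in a group assumes that it varies like the other group. The number changes with how many genes are tested under the 2 minima, and the cause was otherwise not tested.

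With the replicate number as a block the number was 15 (3 higher and 12 lower, limma adjusted p of at least 0.339). Deviations of same-numbered libraries correlated at 0.13 over 16659 genes and 0.07 over 295 lincRNAs. With only 2 pairs and nothing in the labels that ties the numbers to a litter or day, the numbers were not taken to pair the libraries.

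The median log2 fold change of lincRNAs (-0.08) stayed below 0, from -0.18 to -0.035 when 1 library was left out. With a mean of at least 50, the small nucleolar RNA hosts moved to -0.00046 and the immune lincRNAs to 0.51. When 1 library was left out, the medians ran from -0.23 to -0.0018 for small nucleolar RNA hosts, -0.35 to 0.10 for nuclear or regulatory lincRNAs and -0.25 to 0.65 for immune lincRNAs, so the direction of the last 2 was not stable.

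Of the named lincRNAs, 14 changed sign when 1 library was left out. Their log2 fold changes then ran from -0.35 to 0.13 for *2900097C17Rik*, -0.37 to 0.48 for *6720427I07Rik*, -0.12 to 0.32 for *AU020206*, -0.17 to 0.92 for *Bvht*, -0.50 to 0.87 for *Gm36723*, -0.43 to 1.30 for *Gm48662*, -0.67 to 1.28 for *Gm9801*, -0.20 to 0.10 for *Malat1*, -1.51 to 0.89 for *Mir142hg*, -0.89 to 0.65 for *Mir17hg*, -0.59 to 0.22 for *Neat1*, -0.43 to 0.27 for *Pvt1*, -0.18 to 0.18 for *Snhg12* and -0.31 to 0.13 for *Snhg20*, hence also for the highest members. *Snhg12*, near 0, was 0.048 with equal library totals. For the other 31 lincRNAs and *Tet3* the direction held in each setting. The correlation with the nearest coding gene over all distances, whose alternatives were chosen after seeing the data, was 0.21 with a mean of at least 1 and 0.67 with a mean of at least 50. Low values limit most: 476 members had too few counts to be tested.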
